A study of Mus musculus with 14 samples.

Results

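The genes described here are 10 neutrophil genes: S100a8, S100a9, Ltf, Ngp, Camp, Lcn2, Mpo, Elane, Retnlg and Cxcr2. They were chosen by symbol, as genes for granule proteins, for the cytosolic protein calprotectin and for surface or secreted markers of neutrophils, with no threshold on their levels. Earlier results of these data were known at that choice. Shares over all genes set beside the 10 are therefore a description alone. All 10 were found among the 77981 genes of the count table, which covers 14 libraries of mouse liver tumour RNA. The tumours came from 3 genotypes: 4 from Cdk16 and Cdk18 double knockout mice (DKO), 5 from Cdk18 knockout mice (CDK18KO) and 5 from wild-type mice (WT). In all 3 groups, hydrodynamic injection of c-Myc and β-catenin plasmids (mouse genes) started the tumours. The end points were a tumour diameter of 15 mm, signs of distress and 8 weeks after injection. Per the labels' protocols, Cdk16 was deleted after tumours had formed. Animals with floxed Cdk16 (Cdk16 fl/fl) and Cre-ERT2, a Cre recombinase that tamoxifen switches on, and Cre-ERT2 controls received tamoxifen at 75 mg/kg on 5 days in a row, and tumours were taken 10 days after the last dose. The same text stands on all 14 libraries. It does not say whether the WT and CDK18KO tumours carried Cre-ERT2 or received tamoxifen, nor which promoter drives Cre-ERT2, so in comparisons with DKO the loss of Cdk16 cannot be told apart from Cre and tamoxifen.

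Neutrophils fill their granules in sequence while they mature in the bone marrow. Azurophil granules, with myeloperoxidase and serine proteases, form first; specific granules, with lactoferrin and cathelicidin, form next; calprotectin, a dimer of S100A8 and S100A9 that binds calcium and sequesters zinc and manganese, fills the cytosol of maturing and circulating cells. Transcripts for granule proteins are therefore mostly those of marrow precursors, while S100a8 and S100a9 transcripts are still abundant in blood neutrophils. In tumours, neutrophils are known both as killers of tumour cells and as cells that restrain T cells. In bulk tumour RNA, fewer cells of a type and less RNA per cell cannot be told apart.

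Positions are from GENCODE M21 on GRCm38. S100a8 (chr3:90668978-90670035, plus strand) and S100a9 (chr3:90692632-90695721, minus strand) are neighbours, 22.6 kb apart with 0 protein-coding genes between them. Camp (chr9:109847379-109849617, minus strand), Ngp (chr9:110419747-110423012, plus strand) and Ltf (chr9:111019271-111042767, plus strand) lie on 1 stretch of chromosome 9, with 8 protein-coding genes between Camp and Ngp and 20 between Ngp and Ltf. The other 5 genes are on separate chromosomes: Lcn2 at chr2:32384633-32388252, Mpo at chr11:87793581-87804413, Elane at chr10:79886247-79888215, Retnlg at chr16:48872621-48874496 and Cxcr2 at chr1:74153989-74161246. Mpo is overlapped on the opposite strand by the antisense gene Gm11505. The library kit kept the strand, but no source used here gives the strand setting of the counting.

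The promoters of the 5 genes whose levels did not overlap between DKO and CDK18KO tumours are given here with 2 motifs of granulocyte gene control in capitals: TTNNGNAA, bound by C/EBP factors, and GAGGAAG, bound by PU.1, on either strand. Each sequence runs 5′ to 3′ along the gene from 250 bases before to 50 bases after the transcript start of RefSeq (GRCm38.p6), at chr3:90668821-90669120, plus strand for S100a8; chr3:90695672-90695971, minus strand for S100a9; chr9:111019042-111019341, plus strand for Ltf; chr9:110419558-110419857, plus strand for Ngp; and chr9:109849407-109849706, minus strand for Camp.
S100a8: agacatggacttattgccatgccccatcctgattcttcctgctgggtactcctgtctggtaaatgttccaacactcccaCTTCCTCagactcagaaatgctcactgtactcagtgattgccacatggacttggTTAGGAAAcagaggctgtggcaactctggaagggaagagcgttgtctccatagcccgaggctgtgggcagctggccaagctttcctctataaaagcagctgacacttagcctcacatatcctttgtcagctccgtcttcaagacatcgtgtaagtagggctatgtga
S100a9: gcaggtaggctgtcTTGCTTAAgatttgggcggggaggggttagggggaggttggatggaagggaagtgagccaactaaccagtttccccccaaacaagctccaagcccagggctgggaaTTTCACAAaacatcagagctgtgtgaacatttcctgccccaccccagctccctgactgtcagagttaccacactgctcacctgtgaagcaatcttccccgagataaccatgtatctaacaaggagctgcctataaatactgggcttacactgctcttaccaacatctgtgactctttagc
Ltf: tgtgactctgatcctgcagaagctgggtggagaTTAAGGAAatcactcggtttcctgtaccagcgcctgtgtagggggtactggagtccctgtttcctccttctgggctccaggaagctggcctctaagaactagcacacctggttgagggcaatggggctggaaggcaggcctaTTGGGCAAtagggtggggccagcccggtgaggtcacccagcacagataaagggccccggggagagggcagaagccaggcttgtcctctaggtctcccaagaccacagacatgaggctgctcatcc
Ngp: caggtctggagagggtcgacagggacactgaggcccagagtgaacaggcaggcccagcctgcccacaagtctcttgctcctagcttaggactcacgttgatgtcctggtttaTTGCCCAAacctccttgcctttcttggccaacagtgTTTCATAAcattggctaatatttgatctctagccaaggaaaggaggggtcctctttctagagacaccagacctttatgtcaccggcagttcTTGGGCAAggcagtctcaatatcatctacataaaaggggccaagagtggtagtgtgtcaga
Camp: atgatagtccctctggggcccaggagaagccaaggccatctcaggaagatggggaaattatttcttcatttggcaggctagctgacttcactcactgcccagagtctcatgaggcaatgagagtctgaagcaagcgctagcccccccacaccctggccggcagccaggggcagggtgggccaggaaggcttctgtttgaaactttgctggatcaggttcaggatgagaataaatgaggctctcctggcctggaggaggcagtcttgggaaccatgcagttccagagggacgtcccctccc
S100a8 holds the C/EBP letters at -117 and the PU.1 letters at -171, counted from the start. S100a9 holds the C/EBP letters at -236 and -130, Ltf at -217 and -75, and Ngp at -138, -102 and -11. The matched bases at -75 in Ltf and at -11 in Ngp are the same 8 letters, TTGGGCAA. The Camp window holds neither motif. Among all 10 genes, 6 windows hold the C/EBP letters and 4 the PU.1 letters, against 40.7% and 13.6% of the 32851 RefSeq promoters of the same length. An NF-kB consensus is in 0 of the 10 windows and in 4.79% of all promoters. These matches describe the letters alone, and no binding was measured.

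Library totals ran from 1442417 to 6068209 counts, and the 10 genes together took 0.000857 to 0.0618% of a library. Levels are given as CPM, counts scaled to a common library total with TMM factors; reads come from 3′ ends, so a level does not scale with transcript length. An error given as ± is the SD over libraries. Cdk16 stood at 17.8 to 48.5 CPM in DKO, 31.0 to 65.8 CPM in CDK18KO and 40.0 to 59.2 CPM in WT, and Cdk18 at 0.563 to 4.00, 0.927 to 3.42 and 1.26 to 10.4 CPM in the same order; no source used here says whether the counted ends lie inside the deletions, so these values check no label. Y-linked genes summed to 0.647 to 2.78 CPM in the 4 DKO libraries, but to 348 CPM in CDK18KO 1, 204 CPM in WT 3 and 788 CPM in WT 5, and to between 0.311 and 33.0 CPM in the other 7 libraries. Sex is not given in the labels. Counts of genes below are also given without those 3 libraries, a choice made after seeing the data.

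S100a8 and S100a9, the subunits of calprotectin, held most of the counts of the 10 genes in 12 of the 14 libraries. S100a8 stood at 186, 197, 121 and 251 CPM in DKO 1 to 4, at 27.6, 6.38, 2.79, 4.62 and 51.4 CPM in CDK18KO 1 to 5, and at 22.6, 52.2, 25.0, 25.5 and 159 CPM in WT 1 to 5. The lowest DKO library was above all 5 CDK18KO libraries and above 4 of the 5 WT libraries; WT 5 overlapped the DKO range. S100a9 stood at 219, 171, 196 and 192 CPM in DKO, at 26.7, 4.25, 1.86, 0.991 and 28.3 CPM in CDK18KO, and at 20.0, 47.7, 14.8, 17.3 and 104 CPM in WT. All 4 DKO libraries were above the other 10. S100a9 was also the most even of the 10 genes within DKO, at 195 ± 19.5 CPM (SD, n = 4), against 12.4 ± 13.8 CPM in CDK18KO and 40.8 ± 37.8 CPM in WT (n = 5 each). S100a8 averaged 189 ± 53.3 CPM in DKO (n = 4), 18.6 ± 20.9 CPM in CDK18KO and 56.9 ± 58.3 CPM in WT (n = 5 each). For both genes the means ran DKO, WT, CDK18KO from high to low, and the last 2 groups did not differ beyond their spread.

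**Figure D1:**
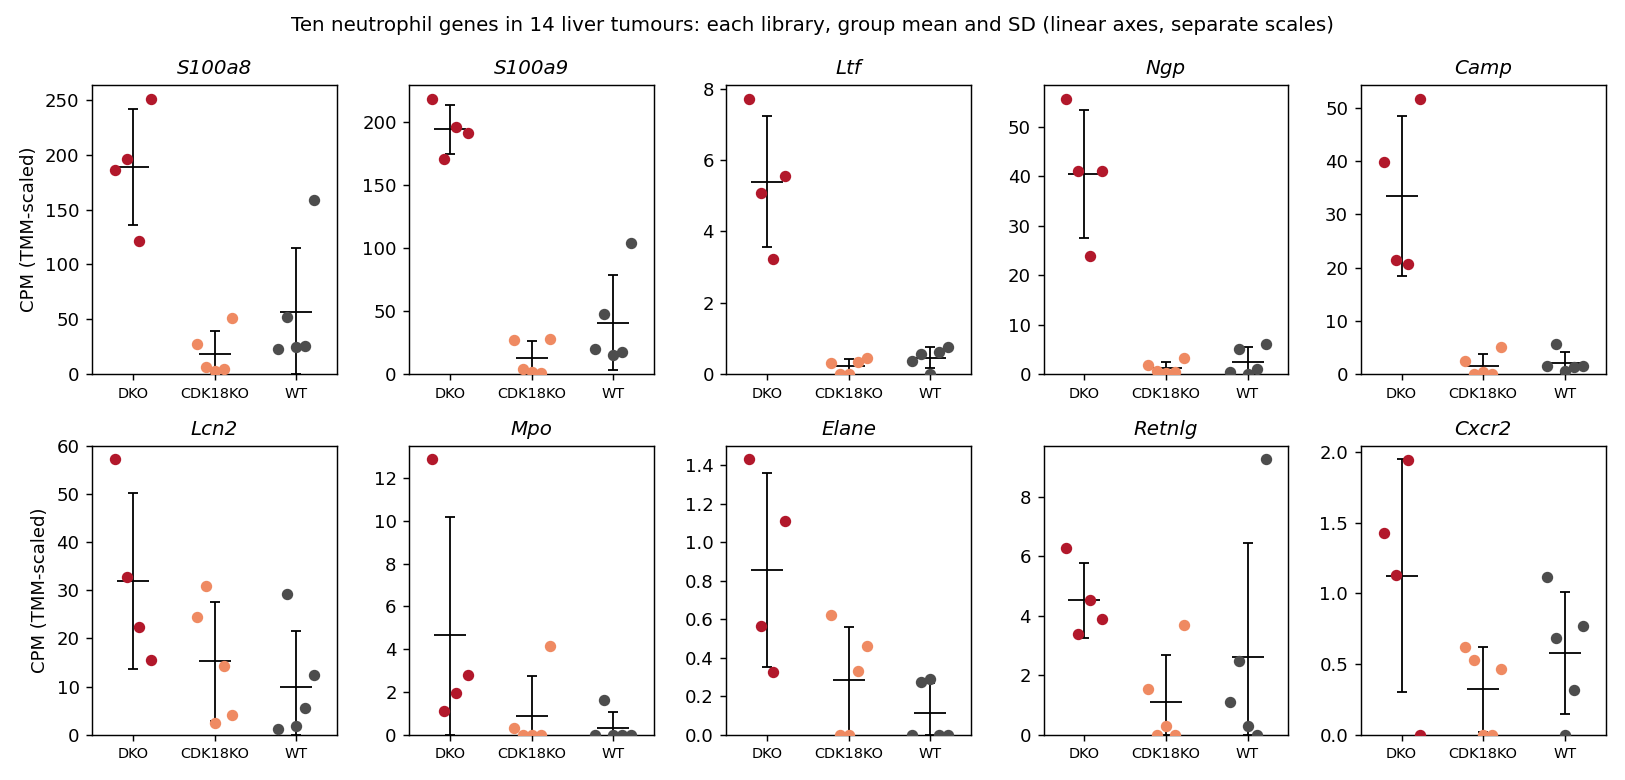
Level of each of the 10 genes in CPM (linear vertical axes, 1 scale per panel) in every DKO (n = 4), CDK18KO (n = 5) and WT (n = 5) library; each point is 1 library, the horizontal bar is the group mean and the whiskers are 1 SD, cut off at 0. For S100a9, Ltf, Ngp and Camp the 4 DKO points lie above the other 10, while Lcn2, Retnlg and Cxcr2 overlap between groups.

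The specific granule genes Ltf, Ngp and Camp were low or absent outside DKO. Ngp, which codes for neutrophilic granule protein, a cystatin-related protein of mouse granules, stood at 55.7, 41.1, 24.0 and 41.1 CPM in DKO, at 1.86, 0.532, 0.311, 0.330 and 3.24 CPM in CDK18KO, and at 0.371, 5.08, 0, 0.945 and 6.17 CPM in WT. The lowest DKO library, DKO 3, was several times above the highest of the others, WT 5. Camp codes for the cathelicidin antimicrobial peptide, whose mouse form is CRAMP. It stood at 39.7, 21.4, 20.7 and 51.7 CPM in DKO, at 2.48, 0, 0.311, 0 and 5.10 CPM in CDK18KO, and at 1.48, 5.63, 0.582, 1.26 and 1.54 CPM in WT. The DKO range again lay clear of the rest, and 2 CDK18KO libraries had no count. Ltf codes for lactoferrin, the iron-binding protein of specific granules, and had 27, 9, 10 and 10 counts in DKO 1 to 4. It had 1, 0, 0, 1 and 1 counts in CDK18KO 1 to 5, and 1, 4, 0, 2 and 1 counts in WT 1 to 5. On the CPM scale Ltf averaged 5.39 ± 1.84 in DKO (SD, n = 4), 0.221 ± 0.210 in CDK18KO and 0.464 ± 0.297 in WT (n = 5 each), again without overlap between DKO and either other group. With 56 counts over DKO and 3 over CDK18KO, the ratio of summed counts per scaled depth was 24.8, with an exact 95% counting interval of 8.06 to 124. That interval covers counting error only.

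Lcn2 did not follow the other specific granule genes. It codes for lipocalin 2, which binds bacterial siderophores and is made by neutrophil precursors, and in mice also by hepatocytes during the acute phase response. Lcn2 stood at 57.1, 32.7, 22.3 and 15.6 CPM in DKO, at 24.5, 30.8, 2.48, 14.2 and 4.17 CPM in CDK18KO, and at 1.11, 29.1, 1.75, 5.67 and 12.3 CPM in WT. The 3 groups overlapped, and CDK18KO 1, CDK18KO 2 and WT 2 ranked above 2 of the 4 DKO libraries. In CDK18KO 2, where Lcn2 was at 30.8 CPM, S100a8 was at 6.38 CPM and Camp had no count. The means were 31.9 ± 18.2 CPM in DKO (n = 4), 15.2 ± 12.4 CPM in CDK18KO and 10.00 ± 11.6 CPM in WT (n = 5 each), and neighbours in that order did not differ beyond their spread.

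The azurophil granule genes gave few counts. Mpo, the gene for myeloperoxidase, which makes hypochlorous acid, had 45, 2, 6 and 5 counts in DKO, 1, 0, 0, 0 and 9 counts in CDK18KO, and 0, 12, 0, 0 and 0 counts in WT. A single library held most of the Mpo counts in each group: DKO 1, CDK18KO 5 and WT 2. Its mean of 4.68 ± 5.50 CPM in DKO (n = 4) therefore rests on DKO 1 at 12.9 CPM, against 0.896 ± 1.84 CPM in CDK18KO and 0.330 ± 0.737 CPM in WT (n = 5 each). Elane, the gene for neutrophil elastase, had 5, 1, 1 and 2 counts in DKO, 2, 0, 0, 1 and 1 counts in CDK18KO, and 0, 2, 1, 0 and 0 counts in WT. Every DKO library exceeded every WT library in Elane CPM, but 9 counts against 3 give a ratio of 5.28 with an exact 95% counting interval of 1.317 to 30.3. Between DKO and CDK18KO, Elane overlapped.

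Retnlg and Cxcr2 are more typical of mature cells. Retnlg codes for a resistin-like secreted protein of mouse neutrophils and had 22, 6, 14 and 7 counts in DKO, 5, 0, 1, 0 and 8 counts in CDK18KO, and 3, 18, 1, 0 and 12 counts in WT. The highest library was WT 5 at 9.26 CPM, above all 4 DKO libraries, which ran from 3.38 to 6.29 CPM. Group means were 4.52 ± 1.27 CPM in DKO (n = 4), 1.11 ± 1.58 CPM in CDK18KO and 2.63 ± 3.83 CPM in WT (n = 5 each). Cxcr2, the chemokine receptor that draws neutrophils out of the marrow and into tissue, had 5, 2, 6 and 0 counts in DKO, 2, 1, 0, 0 and 1 counts in CDK18KO, and 3, 5, 0, 1 and 1 counts in WT. Its groups overlapped, and with 13 counts over DKO, 4 over CDK18KO and 10 over WT a modest difference was not detectable at this depth.

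Summed over the 10 genes, levels were 587, 474, 396 and 565 CPM in DKO 1 to 4, 86.7, 42.5, 8.07, 20.8 and 101 CPM in CDK18KO 1 to 5, and 48.2, 145, 42.8, 51.7 and 294 CPM in WT 1 to 5. The lowest DKO library was above the highest of the other 10, and within CDK18KO the sum spanned 8.07 to 101 CPM. All 4 DKO libraries ranked highest of the 14 for 4 genes, S100a9, Ltf, Ngp and Camp, as they did for 0.186% of the 13997 genes kept by the filter. Of these, Ltf, Ngp and Camp passed that filter because of their DKO levels, so the share is no like-for-like baseline for them.

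DKO and CDK18KO tumours were compared to see what the loss of Cdk16 in established tumours adds to the loss of Cdk18. With the quasi-likelihood F test of edgeR over 13997 genes, 0 of the 10 genes were called at an adjusted p under 0.05, as were 0% of all genes tested. At an unadjusted p under 0.05, 5 of the 10 were higher in DKO, against 3.94% of all genes (1.86% were lower), and the same 5 had groups that did not overlap, against 0.872% of genes higher and 0.722% lower without overlap. These were S100a8, S100a9, Ltf, Ngp and Camp, and the same 5 were without overlap when the 3 libraries with high Y-linked levels were left out, where 2.49% of all genes were higher and 1.23% lower without overlap (4 against 4 libraries). Ngp differed on the log2 scale by 5.00 (SE 0.96, edgeR adjusted p = 0.165) and was higher in 4 of 4 DKO libraries than in any of the 5 CDK18KO libraries. Ltf differed by 4.36 (SE 0.75, adjusted p = 0.144), Camp by 4.39 (SE 0.96, adjusted p = 0.213), S100a9 by 3.97 (SE 0.88, adjusted p = 0.217) and S100a8 by 3.35 (SE 0.82, adjusted p = 0.270), all by edgeR. By p, Ltf ranked 3 and Ngp ranked 8 among all genes, and the smallest adjusted p of any gene was 0.144. DESeq2 on the same genes called these 5, with adjusted p of 0.00628 for S100a8, 0.000864 for S100a9, 0.00319 for Ltf, 6.84e-05 for Ngp and 0.000864 for Camp, against 0.603% of all genes, while limma voom with sample weights called 0 of the 10 and 0% of all genes. Without the filter, edgeR called 4 of the 10 (S100a8, S100a9, Ngp and Camp), against 0.109% of 38425 genes. Most of those 38425 genes had counts too low for the filter, so that share is no like-for-like baseline for the 10. Lcn2 differed by 1.07 (SE 0.85, edgeR adjusted p = 0.993) and Retnlg by 2.03 (SE 1.13, edgeR adjusted p = 0.939), both with overlapping groups. The median log2 fold change over all genes was -0.02.

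The filter on low counts bears on these numbers. It kept genes above 3.40 CPM in at least 4 libraries, which kept 7 of the 10. S100a8, S100a9 and Lcn2 passed it on the CDK18KO and WT libraries alone. Ltf, Ngp, Camp and Retnlg passed because of their levels in DKO libraries, so a high level in DKO was a condition of their being tested. Mpo, Elane and Cxcr2 did not pass. Fitted without the filter, they differed between DKO and CDK18KO by 2.45, 1.44 and 1.78, and each had an edgeR adjusted p of 0.742.

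**Figure D2:**
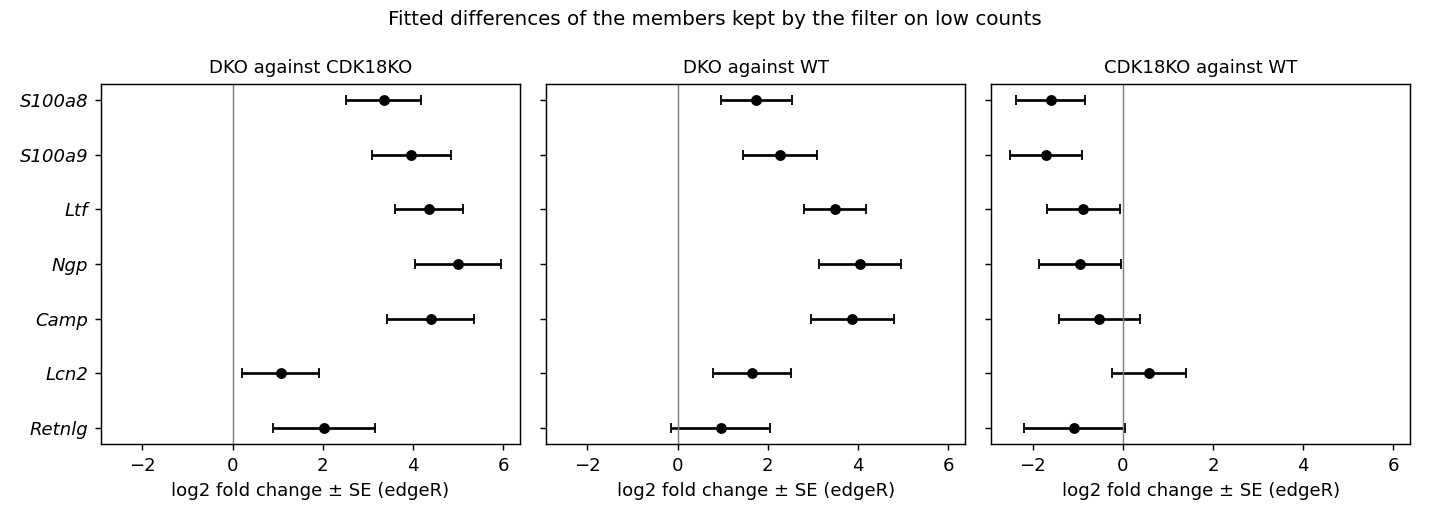
Fitted log2 fold change (horizontal axis) with its SE for the 7 genes kept by the filter, in DKO against CDK18KO, DKO against WT and CDK18KO against WT (edgeR, all 14 libraries in 1 fit). Points right of the line at 0 are higher in the first-named group; Ngp reaches 5.00 in DKO against CDK18KO, and 6 of the 7 points lie left of 0 in CDK18KO against WT, none of them past the threshold.

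DKO and WT tumours were compared for the loss of both kinases. Again 0 of the 10 genes were called by edgeR at an adjusted p under 0.05, against 0.00714% of all genes tested, which is 1 gene. At an unadjusted p under 0.05, 5 of the 10 were higher in DKO, against 13.7% of all genes higher and 5.22% lower. Groups did not overlap for 5 of the 10, against 3.04% of genes higher and 2.46% lower: these were S100a9, Ltf, Ngp, Camp and Elane, all higher in DKO. Elane is not among the 13997 genes behind those shares. Its groups were barely apart: 0.324 CPM in DKO 3 and 0.291 CPM in WT 3 each rest on 1 count. Without the 3 libraries with high Y-linked levels the count was 7 of 10, S100a8 and Retnlg being added, but with 4 against 3 libraries 6.32% of all genes were higher and 5.95% lower without overlap. Ngp differed on the log2 scale by 4.04 (SE 0.90), Camp by 3.88 (SE 0.92) and Ltf by 3.49 (SE 0.69), each with an edgeR adjusted p of 0.146. S100a9 differed by 2.27 (SE 0.82, edgeR adjusted p = 0.165) and S100a8 by 1.74 (SE 0.78, edgeR adjusted p = 0.246), or by 2.91 and 2.54 without WT 5, the WT library with the highest calprotectin. Lcn2 differed by 1.66 (SE 0.86, edgeR adjusted p = 0.312), or by 2.69 without WT 2. Retnlg differed by 0.95 (SE 1.09, edgeR adjusted p = 0.650), or by 2.04 without WT 5. DESeq2 called 3 of the 10, with adjusted p of 0.00211 for Ngp, 0.00338 for Ltf and 0.00350 for Camp, against 7.41% of all genes, and voom called 0 of the 10 and 0% of all genes. All 3 passed the filter, which DESeq2 shared, because of their DKO levels. A high level in DKO was thus a condition of their being tested here too, and the shares of all genes are no like-for-like baseline for them. Without the filter, edgeR called 2 of the 10 (Ngp and Camp), against 0.656% of 38425 genes, most of them with counts too low for the filter. Fitted without the filter, Mpo, Elane and Cxcr2 differed by 3.24, 2.26 and 1.02, with edgeR adjusted p of 0.228, 0.414 and 0.623. The median over all genes was -0.04. This comparison shares the DKO libraries with the one before it, so the 2 are not independent.

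CDK18KO and WT tumours were compared for the loss of Cdk18 alone. None of the 10 genes was called by edgeR, against 0.00714% of all genes tested, and 0 had an unadjusted p under 0.05, against 11.6% of all genes higher and 5.31% lower in CDK18KO. DESeq2, voom and edgeR without the filter also called 0 of the 10, against 6.14%, 0% and 0.45% of all genes. All 10 overlapped between the groups, while 1.1% of genes were higher and 1.6% lower in CDK18KO without overlap. S100a8 differed on the log2 scale by -1.60 (SE 0.76, edgeR adjusted p = 0.300) and S100a9 by -1.70 (SE 0.80, edgeR adjusted p = 0.297). Without WT 5 these differences were -0.79 and -1.04, and without CDK18KO 5 they were -2.43 and -2.23. Ngp differed by -0.95 (SE 0.91), Ltf by -0.87 (SE 0.81), Camp by -0.52 (SE 0.90), Retnlg by -1.07 (SE 1.12) and Lcn2 by 0.58 (SE 0.82), with edgeR adjusted p of 0.608 to 0.798. Camp stood at 0.38 without WT 2, Retnlg at 0.021 without WT 5, and Lcn2 at -0.025 without the 3 libraries with high Y-linked levels, so these 3 have no settled sign.

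The make-up of the neutrophil signal differed between libraries. The ratio of S100a8 to S100a9 counts was 0.851, 1.15, 0.619 and 1.31 in DKO 1 to 4, ran from 1.03 to 4.67 with a median of 1.5 in CDK18KO, and ran from 1.095 to 1.69 with a median of 1.47 in WT. The highest ratio, in CDK18KO 4, rests on 14 counts against 3. The sum of Ltf, Ngp and Camp, divided by the sum of S100a8 and S100a9, was 0.151 to 0.255 in DKO with a median of 0.203, 0.05 to 0.133 in CDK18KO with a median of 0.110, and 0.0146 to 0.113 in WT with a median of 0.0522. All 4 DKO libraries were thus above the other 10 in this ratio of specific granule genes to calprotectin. With 0.5 counts added to both sums, the DKO range began at 0.151 and the CDK18KO range ended at 0.161, so those groups then overlapped, while WT ended at 0.113.

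Lcn2 relative to calprotectin gave the widest range, 0.0351 to 0.141 in DKO, 0.0523 to 2.90 in CDK18KO and 0.0261 to 0.292 in WT. Lcn2 counts exceeded those of S100a8 and S100a9 together in CDK18KO 2, at a ratio of 2.90, and CDK18KO 4, at 2.53. Those are also the libraries where calprotectin made up 25.0% and 27.0% of the counts of the 10 genes, against 57.7 to 78.5% in the other 3 CDK18KO libraries. The share was 69.0 to 80.1% in DKO and 68.7 to 93.2% in WT. CDK18KO 2 and 4 held 80 and 63 counts on the 10 genes in all, so these shares are less precise than those of the DKO libraries, which rest on 842 to 2056 counts.

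**Figure D3:**
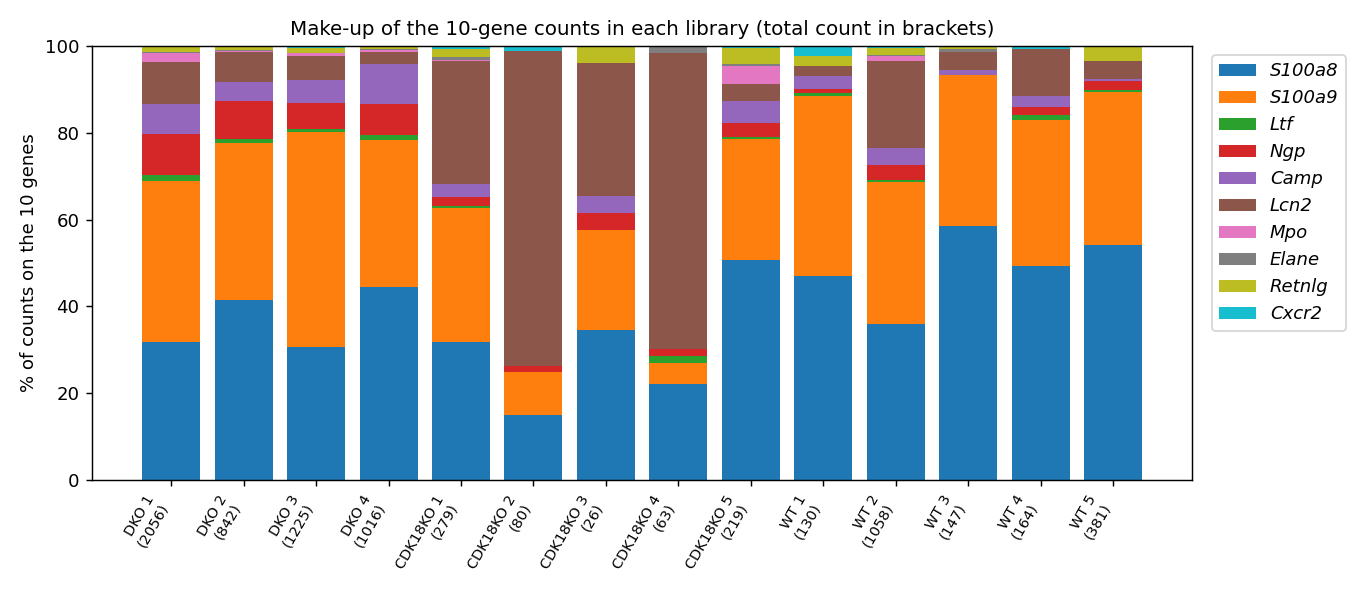
Share of each of the 10 genes in their summed counts (vertical axis, %) in each library, with the total count in brackets under the library name. S100a8 and S100a9 take 69.0% or more in every DKO library, while Lcn2 fills most of CDK18KO 2 and CDK18KO 4.

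**Figure D4:**
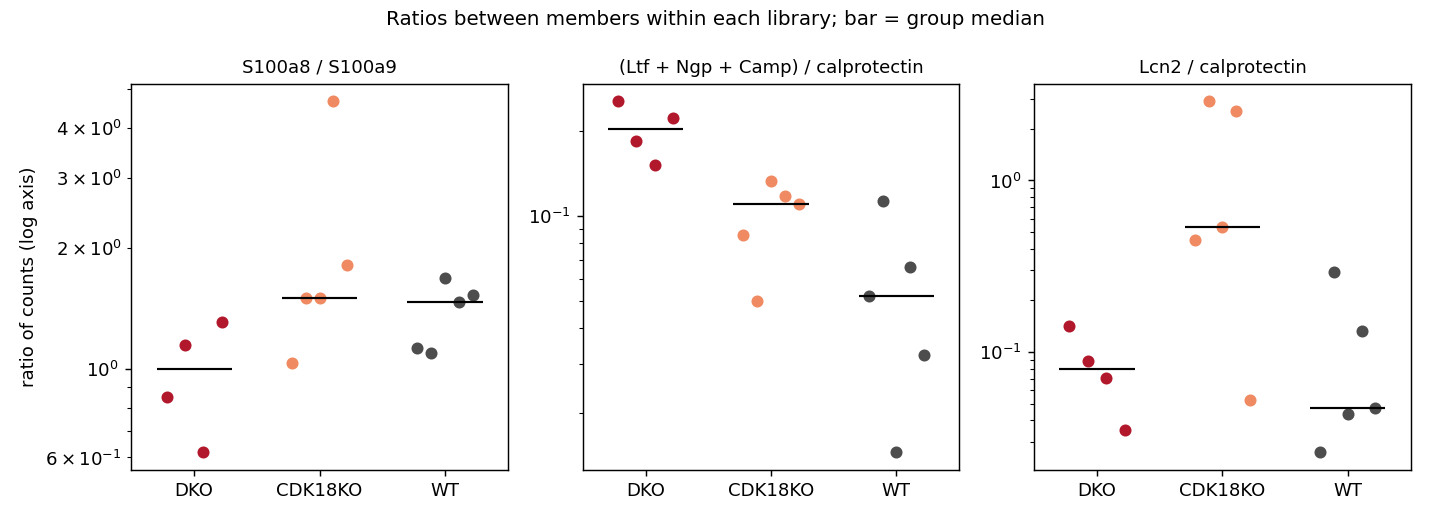
Ratios of counts within each library (log vertical axes) for S100a8 to S100a9, for the sum of Ltf, Ngp and Camp to calprotectin (S100a8 plus S100a9) and for Lcn2 to calprotectin; each point is 1 library and the bar is the group median. In the middle panel the 4 DKO points, 0.151 to 0.255, lie above the other 10.

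Likeness between genes was measured as the root mean square distance between log2 CPM values scaled to mean 0 and SD 1 over the 14 libraries, with 0 for identical profiles. It is a description across libraries that share depth and group. The mean profile of S100a8 and S100a9 lay 0.457 from Camp, 0.461 from Ngp, 0.489 from Retnlg and 0.565 from Ltf, but 1.03 from Lcn2. The 5 other genes nearest to it were Per2, a circadian clock repressor, at 0.405, the neutrophil collagenase gene Mmp8 at 0.461, Plekha2 at 0.471, the oestrogen receptor gene Esr1 at 0.494 and Wfdc21 at 0.519. Per2 stood at 25.9 to 35.6 CPM in DKO, 5.32 to 13.7 CPM in CDK18KO and 9.77 to 14.7 CPM in WT, without overlap between DKO and the others. For Ltf, Ngp and Camp the nearest genes were the immunoglobulin light chain gene Igkc at 0.399, Per2 at 0.423, Mmp8 at 0.449, the antibody joining chain gene Jchain at 0.469 and the heavy chain gene Ighm at 0.471.

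Other genes lay near Lcn2. They included Steap4, a metalloreductase gene, at 0.291, Azgp1 at 0.332, the complement regulator gene C4bp at 0.334, and Lrg1, for a leucine-rich glycoprotein secreted by liver, at 0.378. C4bp, Azgp1 and Lrg1 are products of hepatocytes. Lrg1 stood at 42.4 to 293 CPM in DKO, 4.35 to 193 CPM in CDK18KO and 1.85 to 56.3 CPM in WT, overlapping between groups as Lcn2 did. From Lcn2 to the other specific granule genes the distance was 0.797 for Ngp, 0.895 for Ltf and 0.975 for Camp.

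Other neutrophil genes, taken as lists, were mostly too low to test. Of 5 further azurophil granule genes, 1 was tested: Prtn3, for proteinase 3, at 3.56 to 57.7 CPM in DKO, 0.932 to 27.3 CPM in CDK18KO and 0.291 to 18.6 CPM in WT. Of 10 further specific and gelatinase granule genes, 6 were tested, and 0 were called in any comparison by edgeR. Their median log2 fold change was 2.37 in DKO against CDK18KO, with 4 higher and 0 lower at an unadjusted p under 0.05, and 1.04 in DKO against WT, with 3 higher and 1 lower. In CDK18KO against WT it was -0.95, with 0 higher and 1 lower. Mmp8 averaged 9.32 ± 1.79 CPM in DKO (n = 4), 1.21 ± 0.788 CPM in CDK18KO and 2.72 ± 3.78 CPM in WT (n = 5 each), and differed by 2.92 on the log2 scale (SE 0.84, edgeR adjusted p = 0.418) between DKO and CDK18KO with no overlap. Cybb, the catalytic subunit of the NADPH oxidase of phagocytes, differed by 1.84 (SE 0.52, edgeR adjusted p = 0.415) in DKO against CDK18KO and by 1.89 (SE 0.52, edgeR adjusted p = 0.146) in DKO against WT, without overlap in the second. Wfdc21 spanned 42.2 to 819 CPM in DKO, 0.661 to 47.8 CPM in CDK18KO and 5.93 to 140 CPM in WT. Mmp9, for gelatinase B, averaged 4.98 ± 3.30 CPM in DKO (n = 4), 0.620 ± 0.957 CPM in CDK18KO and 17.2 ± 6.34 CPM in WT (n = 5 each). It differed by 2.90 (SE 0.90, edgeR adjusted p = 0.493) in DKO against CDK18KO and by -1.75 (SE 0.81, edgeR adjusted p = 0.260) in DKO against WT. In CDK18KO against WT it differed by -4.65 (SE 0.89, edgeR adjusted p = 0.102) without overlap. Ltb4r1, for a leukotriene B4 receptor, differed by -1.66 (SE 1.25, edgeR adjusted p = 0.993) in DKO against CDK18KO and by -2.31 (SE 1.27, edgeR adjusted p = 0.336) in DKO against WT, with overlapping groups in both. Lyz2, for lysozyme, differed by 1.098 and 0.19 in those 2 comparisons.

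Genes of the neutrophil surface and cytosol gave a list of 20, of which 19 were in the table and 4 were tested, with 0 called by edgeR in any comparison. The median log2 fold change of the tested genes was 1.78 in DKO against CDK18KO, 0.97 in DKO against WT and -0.47 in CDK18KO against WT. Without DKO 1 the first was 0.96, and without CDK18KO 1 it was 2.36. Itgam, the integrin subunit CD11b of myeloid cells, differed by 2.19 (SE 0.79, edgeR adjusted p = 0.646) in DKO against CDK18KO. Cd300lf differed by 1.37 (SE 0.46, edgeR adjusted p = 0.578) and Hdc, the histamine-making enzyme of granulocytes and mast cells, by 2.27 (SE 1.11, edgeR adjusted p = 0.896). In DKO against WT, Itgam differed by 2.12 (SE 0.79, edgeR adjusted p = 0.173), but Cd300lf by 0.50 (SE 0.46, edgeR adjusted p = 0.565) and Hdc by -0.05 (SE 1.07, edgeR adjusted p = 0.984). Hdc averaged 40.0 ± 53.5 CPM in DKO (n = 4), 8.13 ± 11.8 CPM in CDK18KO and 41.2 ± 45.1 CPM in WT (n = 5 each). Several defining markers of neutrophils were at or near 0. Ly6g, the mouse neutrophil surface antigen, had 16 counts over DKO, 0 over CDK18KO and 12 over WT, without overlap between DKO and CDK18KO. Csf3r, the receptor for granulocyte growth factor, had 29, 10 and 33 counts in the same order, Fpr1, a receptor for bacterial formyl peptides, 36, 6 and 13, and Cd177 1, 0 and 2. Cxcr1 had 0 counts in all 3 groups. Csf3r, Fpr1 and Cd177 overlapped between DKO and both other groups, as did most untested genes of the neutrophil lists. Fpr2, Chil3 and Ctsg, also untested, did not overlap, with DKO above both other groups in CPM. In the same order, Fpr2 had 61, 17 and 23 counts, Chil3 79, 5 and 4, and Ctsg 22, 2 and 1.

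The ligands of Cxcr2 and the growth factor Csf3 made a list of 7, of which 5 were tested and 0 called by edgeR. Their median log2 fold change was 1.79 in DKO against CDK18KO, 0.48 in DKO against WT and -0.93 in CDK18KO against WT; it was 0.83 in the first without DKO 4 and -0.69 in the second without DKO 3. Cxcl1, a neutrophil attractant, stood at 11.7 to 42.9 CPM in DKO, 2.48 to 22.7 CPM in CDK18KO and 0.371 to 17.4 CPM in WT, and differed by 1.79 (SE 0.81, edgeR adjusted p = 0.823) between DKO and CDK18KO. Cxcl5 differed by 2.23 (SE 1.11, edgeR adjusted p = 0.909) and Ppbp, a chemokine of platelets, by 1.94 (SE 1.06, edgeR adjusted p = 0.933), both with overlap. Both were uneven within DKO (n = 4): Cxcl5 averaged 7.49 ± 11.3 CPM and ran from 0.556 to 24.3 CPM. Ppbp averaged 6.78 ± 8.88 CPM and ran from 1.13 to 20.0 CPM. Csf3 had 1, 0 and 1 counts in DKO, CDK18KO and WT.

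Receptors for calprotectin and lipocalin 2 made a list of 5 with 3 tested, and transcription factors of the granulocyte lineage a list of 8 with 6 tested; edgeR called 0 of either in any comparison. The receptors' median log2 fold change was 0.45 in DKO against CDK18KO, 0.67 in DKO against WT and 0.22 in CDK18KO against WT. The scavenger receptor gene Cd36 differed by 2.77 (SE 0.83, edgeR adjusted p = 0.146) in DKO against WT and by 2.51 (SE 0.80, edgeR adjusted p = 0.168) in CDK18KO against WT. Slc22a17, a receptor for lipocalin 2, differed by -1.19 (SE 1.06, edgeR adjusted p = 0.555) and -1.85 (SE 1.014, edgeR adjusted p = 0.368), and Bsg, a receptor for S100A9, by 0.67 (SE 0.30, edgeR adjusted p = 0.248) and 0.22 (SE 0.29, edgeR adjusted p = 0.723), in the same comparisons. For the transcription factors the medians were 0.55 in DKO against CDK18KO, 1.19 in DKO against WT and 0.37 in CDK18KO against WT. Spi1, which codes for PU.1, stood at 5.18 to 8.00 CPM in DKO, 0.991 to 6.83 CPM in CDK18KO and 0 to 3.47 CPM in WT. It differed by 1.79 (SE 0.66, edgeR adjusted p = 0.167) in DKO against WT, without overlap, and by 1.25 (SE 0.65, edgeR adjusted p = 0.920) in DKO against CDK18KO. Cebpe, the C/EBP factor required for specific granules, had 5 counts over DKO, 0 over CDK18KO and 1 over WT.

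Sums of markers of every other cell type listed here and below also averaged higher in DKO than in CDK18KO and WT. Only the B and plasma cell sum did so without overlap. B and plasma cell markers, of which 3 of 8 were tested, summed to 34.6 to 130 CPM in DKO, 1.321 to 8.39 CPM in CDK18KO and 2.22 to 9.26 CPM in WT, without overlap between DKO and the rest. Cd79a had 0 counts over DKO, 0 over CDK18KO and 2 over WT, and Ms4a1 had 14, 4 and 3 counts in that order, with DKO above both other groups in CPM. Igkc differed by 4.18 (SE 0.70, edgeR adjusted p = 0.144) between DKO and CDK18KO. Erythroid markers, 9 of 10 tested, summed to 1762 to 10474 CPM in DKO, 538 to 1949 CPM in CDK18KO and 590 to 2674 CPM in WT, with a median log2 fold change of 2.76 in DKO against CDK18KO and 2.49 in DKO against WT. Ahsp differed by 5.13 (SE 1.07, edgeR adjusted p = 0.194) between DKO and CDK18KO, with DKO above both other groups without overlap. Hba-a1 differed by 2.87 (SE 0.51, edgeR adjusted p = 0.144) between DKO and CDK18KO without overlap, but DKO overlapped WT. Macrophage and Kupffer cell markers, 9 of 11 tested, summed to 104 to 902 CPM in DKO, 82.2 to 221 CPM in CDK18KO and 72.7 to 209 CPM in WT. Monocyte markers, 6 of 6 tested, summed to 619 to 955 CPM in DKO, 97.8 to 1087 CPM in CDK18KO and 331 to 653 CPM in WT. The part of each of these cell types in the differences of the 10 genes was not tested.

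**Figure D5:**
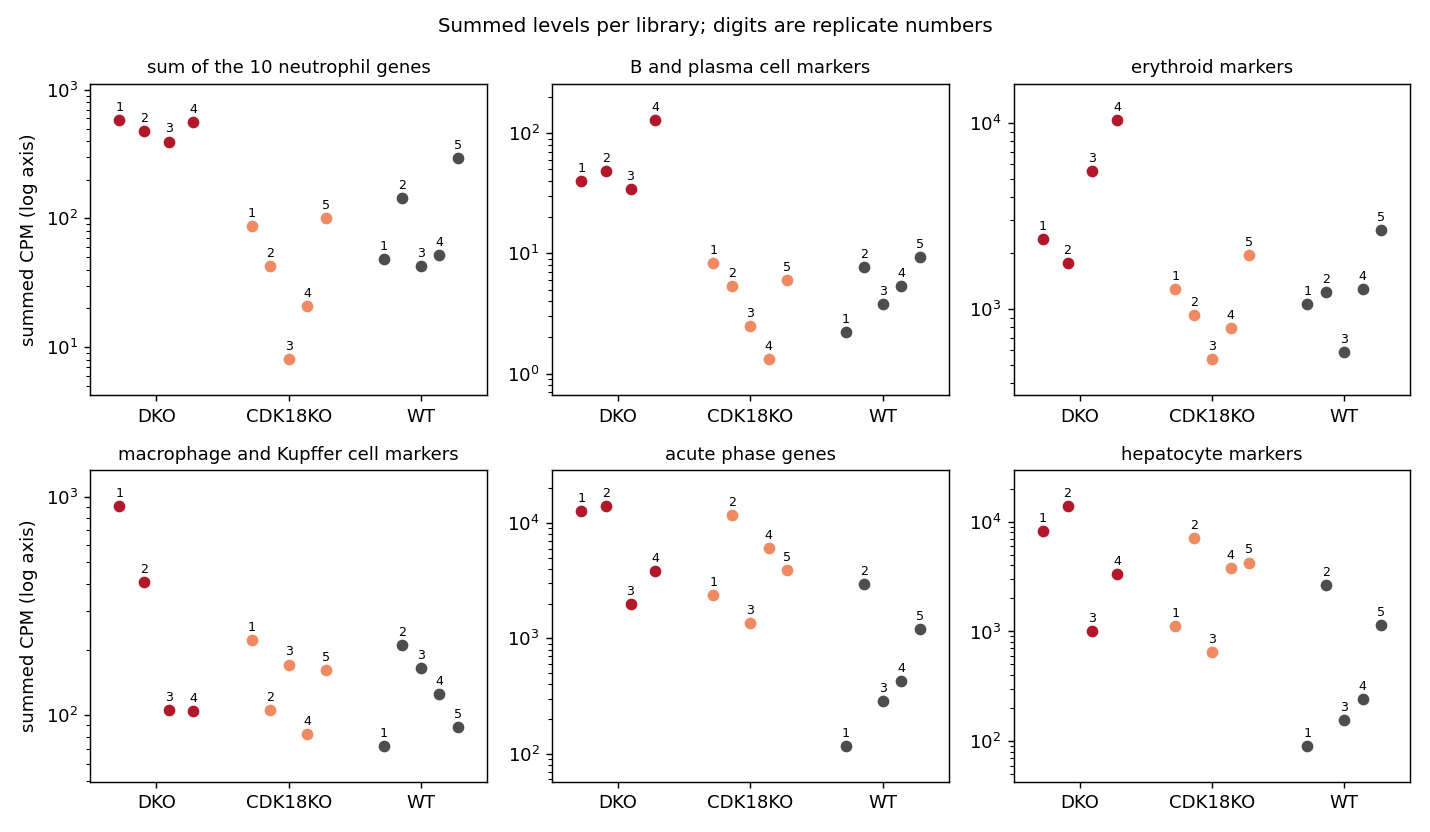
Summed CPM per library (log vertical axes; digits are replicate numbers) of the 10 neutrophil genes and of 5 other lists, in DKO (n = 4), CDK18KO (n = 5) and WT (n = 5). The neutrophil sum and the B and plasma cell sum lie above all other libraries in the 4 DKO libraries, while hepatocyte and acute phase sums overlap between DKO and CDK18KO.

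Acute phase and hepatocyte genes, given here beside Lcn2, varied widely within every group. Acute phase genes, 15 of 15 tested, summed to 1978 to 14011 CPM in DKO, 1354 to 11787 CPM in CDK18KO and 117 to 2978 CPM in WT. Their median log2 fold change was 0.94 in DKO against CDK18KO, 2.89 in DKO against WT and 1.95 in CDK18KO against WT, with 0 called by edgeR in each. Saa2, for a serum amyloid of the acute phase, differed by 4.80 (SE 1.003, edgeR adjusted p = 0.194) between DKO and CDK18KO without overlap. Hepatocyte markers, 10 of 10 tested, summed to 1009 to 13828 CPM in DKO, 653 to 7097 CPM in CDK18KO and 90.8 to 2676 CPM in WT, with medians of 0.58, 3.17 and 2.15 in the same order of comparisons. Within WT, WT 2 had the highest sum of both lists and the highest Lcn2, and the other WT libraries also kept 1 order in all 3. Within CDK18KO, CDK18KO 2 was highest and CDK18KO 3 lowest in all 3, but the others differed in order. CDK18KO 1 had Lcn2 at 24.5 CPM with acute phase and hepatocyte sums of 2385 and 1114 CPM. CDK18KO 5 had Lcn2 at 4.17 CPM with sums of 3950 and 4251 CPM. In DKO the order also differed: DKO 2 had the highest sums, and DKO 1 the highest Lcn2. The part of hepatocytes in the level of Lcn2 was not tested. T and NK cell markers and markers of eosinophils, basophils and mast cells were too low for any of their 9 genes each to be tested, with sums of at most 14.1 and 7.14 CPM. Platelet markers, 2 of 5 tested, summed to 7.32 to 53.4 CPM in DKO, 2.13 to 16.5 CPM in CDK18KO and 4.41 to 17.7 CPM in WT.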

How the data were processed

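Per the labels' protocols, libraries were made with a stranded 3′ kit primed by oligo(dT) that adds a 6-base molecular identifier to each read. The authors deposited raw counts per gene symbol for 77981 genes in 14 libraries, and 0 columns were left unused. The submitters' processing notes name the counter HTSeq 1.99.2, the aligner STAR 2.7.11a, UMI-tools 1.1.2, DESeq2 1.32.0 and FastQC. They name the builds mm10 and GRCh38 with no role. No source used here says whether reads with the same identifier were collapsed or which annotation was counted. Intervals cover counting error only.

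Groups came from the titles. The labels call the libraries biological replicates of mice. The test was edgeR 4.0.16 (R 4.3.3) on the deposited counts: TMM factors, the filter on low counts by group, 1 fit of 14 libraries, the quasi-likelihood F test, two-sided, and Benjamini-Hochberg adjustment over 13997 genes, which held 99.0% of counts. The SE is the log2 fold change over the square root of F. The scripts were tested on simulated data. Alternatives were DESeq2 1.42.0, RLE factors, no filter, a filter of 1 CPM in 7 libraries, limma 3.58.1 voom with sample weights, only the groups compared, a replicate block, a prior count of 2, each library left out, and, added after seeing the data, leaving out libraries with Y-linked levels over 100 CPM. The text names all 10 genes, genes from among the 3 tested ones with the smallest p in DKO against CDK18KO of each other list, and the 5 nearest genes of each profile, of which 1 near Lcn2 is not reported here; untested markers given by their counts, and Mmp9, Ltb4r1 and Lyz2, were chosen after their values were seen. The 10 genes and the lists were chosen with earlier results of these data known.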

Additional observations from a re-analysis of the deposited data

Results flagged for a closer look

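In 6 of the 30 combinations of gene and group, 1 library stood apart within its group by Dixon's test at the 95% level. Chance alone gives this in about 1 in 20 groups of normally distributed values. That rate was not checked for counts this low and uneven, so 6 of 30 is no measure of an excess. For Mpo, 1 library stood apart in each group: DKO 1 at 12.9 CPM, CDK18KO 5 at 4.17 CPM and WT 2 at 1.65 CPM. In WT 5, S100a8 was at 159 CPM and Retnlg at 9.26 CPM, both the highest of the WT libraries. In WT 2, Camp was at 5.63 CPM. WT 5 has the smallest total of the 14 libraries and WT 2 the largest.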

How the results depend on the processing

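Genes called by edgeR numbered 0 in DKO against CDK18KO, 1 in DKO against WT and 1 in CDK18KO against WT. In that order DESeq2 called 84, 1033 and 856, the fit with no filter 42, 252 and 173, and the replicate block 0, 438 and 297. Voom, the fit of only the groups compared and the fit without libraries with Y-linked levels over 100 CPM each called 0, 0 and 0. RLE factors, the filter of 1 CPM in 7 libraries and the prior count of 2 gave the counts above. With each library left out, counts ran from 0 to 2, from 0 to 1, and from 0 to 74; the 2 and the 74 came without CDK18KO 1. Of the 10 genes, 0 were called in each comparison with each library left out. In DKO against CDK18KO, DESeq2 called 5 and the fit with no filter 4 (S100a8, S100a9, Ngp and Camp), and in DKO against WT they called 3 and 2 (Ngp and Camp). The replicate block called 5 in DKO against WT (S100a8, S100a9, Ltf, Ngp and Camp), against 438 of all 13997 genes tested. In DKO against CDK18KO the block called 0 of the 10 and 0 of all genes. Among the 10 genes, signs turned in CDK18KO against WT alone: Camp to 0.38 without WT 2 (-1.53 to 0.38 over the libraries left out), Retnlg to 0.021 without WT 5 (-2.12 to 0.021) and Lcn2 to -0.025 without the libraries with high Y-linked levels; the cause was not tested. For S100a9, Ltf, Ngp and Camp the log2 fold change in DKO against CDK18KO stayed at 2.76 or above under the alternatives that tested them. Replicate numbers share only a number: same-numbered libraries' deviations correlated at -0.23 to 0.65 over the 3 comparisons, and in each comparison 1 library of the first group had its own number as nearest. Ltf was not tested under the filter of 1 CPM in 7 libraries. Elane and Cxcr2, at 9 and 13 counts over DKO, have wide counting intervals.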
